A study of Mus musculus with 7 samples.

Results

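The genes for long noncoding RNAs were followed in muscle stem cells (MuSCs) of WT mice and of mice homozygous for *Jag2sm*, namely *Malat1*, *Neat1*, *Kcnq1ot1*, *Gas5*, *Snhg1*, *Snhg12* and *Mir22hg*. They were chosen by symbol as RNAs that stay in the nucleus or that carry smaller RNAs, and they are 7 of the 56748 genes in the count files. None of the 7 passed the test between genotypes after adjustment over all genes tested, where 6.26% of all genes did. *Gas5* and *Snhg12* were higher in all 4 *Jag2sm* libraries than in all 3 WT libraries, by 0.64 ± 0.23 and 0.85 ± 0.309 on the log2 scale (standard error, n = 3 WT and 4 *Jag2sm* libraries), without passing the adjusted threshold. Such a lack of overlap, in either direction, was seen for 22.5% of all genes tested.

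The MuSCs were purified from hind limb muscle of adult mice with antibody-coupled beads, which removed cells carrying CD31, CD45 or Sca1 and then kept those with integrin α7, and the protocol describes growth of such cells on collagen in a medium with serum and bFGF. *Jag2sm*, the syndactylism allele, is a change carried by the whole animal in *Jag2*, which encodes a ligand of NOTCH receptors. The 3 WT and 4 *Jag2sm* RNA samples were sequenced as cDNA in long reads on nanopores after barcoding and pooling. The labels name separate replicates but no animals, so p-values measure the spread between these samples, which may be technical. The study used male and female mice, and the sex behind each library, the strain of the WT mice and whether or how long the cells sequenced were cultured are not given in the sources used here. In RNA from a whole cell sample, fewer cells of a type and less RNA per cell cannot be told apart.

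*Malat1* and *Neat1* are neighbouring nuclear RNAs, the former concentrated in nuclear speckles and the latter the scaffold of paraspeckles. *Kcnq1ot1* is transcribed from the paternal chromosome and silences imprinted genes around it. *Gas5*, *Snhg1* and *Snhg12* are host genes: their introns release small nucleolar RNAs (snoRNAs), which guide chemical changes of ribosomal RNA, and their spliced exons are mostly degraded by nonsense-mediated decay once ribosomes read them. Many such hosts start transcription in a run of pyrimidines, as ribosomal protein genes do. *Mir22hg* is the precursor of the microRNA miR-22.

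The start sequences of the 3 snoRNA hosts are shown because all of them hold such a run at or near the annotated start. Each is 100 bases of GRCm39 on the plus strand, matched there from the RefSeq start table of an earlier build, with the first 50 bases lying before the annotated start. Capitals mark a run of at least 6 C or T between 10 bases before and 15 bases after the start, a definition made after these sequences had been looked at. The windows are chr1:160862686-160862785, chr19:8700801-8700900 and chr4:132035939-132036038.
Gas5: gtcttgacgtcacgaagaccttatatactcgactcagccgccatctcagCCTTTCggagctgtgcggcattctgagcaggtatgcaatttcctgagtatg
Snhg1: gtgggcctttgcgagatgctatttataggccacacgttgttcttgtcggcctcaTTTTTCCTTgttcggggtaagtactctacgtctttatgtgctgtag
Snhg12: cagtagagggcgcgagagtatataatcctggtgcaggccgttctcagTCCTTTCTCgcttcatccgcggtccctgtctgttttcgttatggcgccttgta
The run had 6 bases in *Gas5* and 9 in both *Snhg1* and *Snhg12*. With the annotated start as base 1 and the base before it as −1, it began at −1 in *Gas5*, −3 in *Snhg12* and 5 in *Snhg1*. The marked run of *Snhg1* thus lies after its annotated start. Of 32851 start windows in the table, read on the transcribed strand, 24.4% held such a run. The windows of *Malat1*, *Kcnq1ot1* and *Mir22hg* and the other listed start of *Gas5* held none, and *Neat1* had no entry.

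*Malat1* RNA has no ordinary poly(A) tail. Its end is made by cleavage and is protected by a triple helix between U-rich stretches and an A-rich stretch, while cDNA synthesis in direct cDNA kits starts from an oligo(dT) primer. The stretch is shown because it holds the only A run of at least 10 bases in the transcript, at chr19:5845996-5846117 of GRCm39 on the minus strand, with capitals on 2 T-rich runs and on the A run, all picked by eye.
Malat1: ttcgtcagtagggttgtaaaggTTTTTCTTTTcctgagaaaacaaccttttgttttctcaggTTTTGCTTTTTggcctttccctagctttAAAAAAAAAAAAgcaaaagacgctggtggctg
The A run had 12 bases and ended 299 bases before the annotated end of the gene. Among the longest transcripts of the other members, *Kcnq1ot1* held 10 A runs of at least 10 bases in 93092 bases, *Snhg12* held 1, and *Neat1*, *Gas5*, *Snhg1* and *Mir22hg* held 0. Of 9478 tested genes with a transcript sequence, 25.7% held at least 1. Where the reads of a gene began is not in the count files, so the part of these runs in the counts was not tested.

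The product of *Mir22hg* is shown by its mature sequences from RefSeq, with the seed, bases 2 to 8, in capitals. The hairpin lies at chr11:75354542-75354636 of GRCm39, on the plus strand and within an exon of the host.
mmu-miR-22-5p: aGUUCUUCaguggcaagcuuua
mmu-miR-22-3p: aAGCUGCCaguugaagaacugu
The row for *Mir22* had 0 counts in all 7 libraries, as did the 23 snoRNA rows inside *Gas5* (10), *Snhg1* (8) and *Snhg12* (5). All of these lie wholly within annotated exons of their hosts on the same strand (GENCODE M39), where counting by gene can set a read aside as ambiguous, so the zeros put no limit on the small RNAs. The values below are those of the host rows, in CPM (counts scaled to a library of 1000000).

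The 7 libraries held between 187834 and 1937581 reads on genes. WT replicate 1 was the smallest, so that 3 counts made 17.3 CPM there. Aligned reads that overlapped no counted part of a gene were 45.1% of those aligned in that library, compared with 20.8 to 25.7% elsewhere. Those aligned include reads of low alignment quality. Whether the reads on no gene lay between genes, in introns or on the other strand is not in the counts. Reads that did not align were 50.8, 46.7 and 46.0% in *Jag2sm* replicates 1, 2 and 4 and between 2.44 and 3.24% elsewhere. *Jag2* itself was 80.7, 114 and 116 CPM in WT and 42.4, 78.8, 71.9 and 77.4 CPM in *Jag2sm*, a log2 difference of −0.64 that did not pass (edgeR, adjusted p = 0.166). Markers of differentiated muscle summed to 28839, 14618 and 16126 CPM in WT and to 562 to 3819 CPM in *Jag2sm*, and all 7 tested of 8 were called lower. Endothelial and immune markers summed to at most 14.1 and 4.08 CPM in any library, with 2 of 5 and 3 of 5 at 0 in all. Fibro-adipogenic markers summed to 0 to 44.9 CPM with 1 of 5, *Dpt*, at 0 in all. Mural, glial and tenocyte markers summed to 71.2 to 156 CPM in 6 libraries and to 699 CPM in *Jag2sm* replicate 1, where *Rgs5* was 645 CPM. *Rgs5* was 11.5 to 14.2 CPM in WT and 25.3 to 645 CPM in *Jag2sm*, with all *Jag2sm* libraries above WT (log2 fold change 3.73, edgeR adjusted p = 0.135). *Scx* of the same list was called lower, at 117 ± 2.55 CPM in WT and 47 ± 19.2 in *Jag2sm* (SD, log2 fold change −1.34, edgeR adjusted p = 0.0223). All 8 markers of MuSCs and myoblasts were detected and tested, 4 above and 4 below 0 in log2 fold change. Of these *Des*, a muscle intermediate filament, was called lower (−1.63, edgeR adjusted p = 0.0244). *Pax7*, which marks MuSCs, was 68.4 ± 35.1 CPM in WT and 132 ± 29.8 in *Jag2sm* (SD; 0.80, edgeR adjusted p = 0.174), with all *Jag2sm* libraries above WT. The part of these markers in the results below was not tested.

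Of the 9489 genes that passed the filter on low counts, edgeR's quasi-likelihood test called 6.26% at an adjusted p under 0.05, 1.42% as higher and 4.84% as lower in *Jag2sm*. All 7 long noncoding RNAs passed the filter and 0 were called, by edgeR, DESeq2 and limma-voom alike. At an unadjusted p under 0.05, where 19.7% of all genes fell and 8.76% did so upward, there were 2 by each of the 3 tools, *Gas5* and *Snhg12*. The log2 fold change was above 0 for 3, all snoRNA hosts, and below 0 for 4. The libraries of the genotypes did not overlap for 2 of 7, both higher in *Jag2sm*, against 22.5% of all genes in either direction. Together the 7 RNAs made up 0.0792 to 0.121% of the reads on genes in each library.

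**Figure D1:**
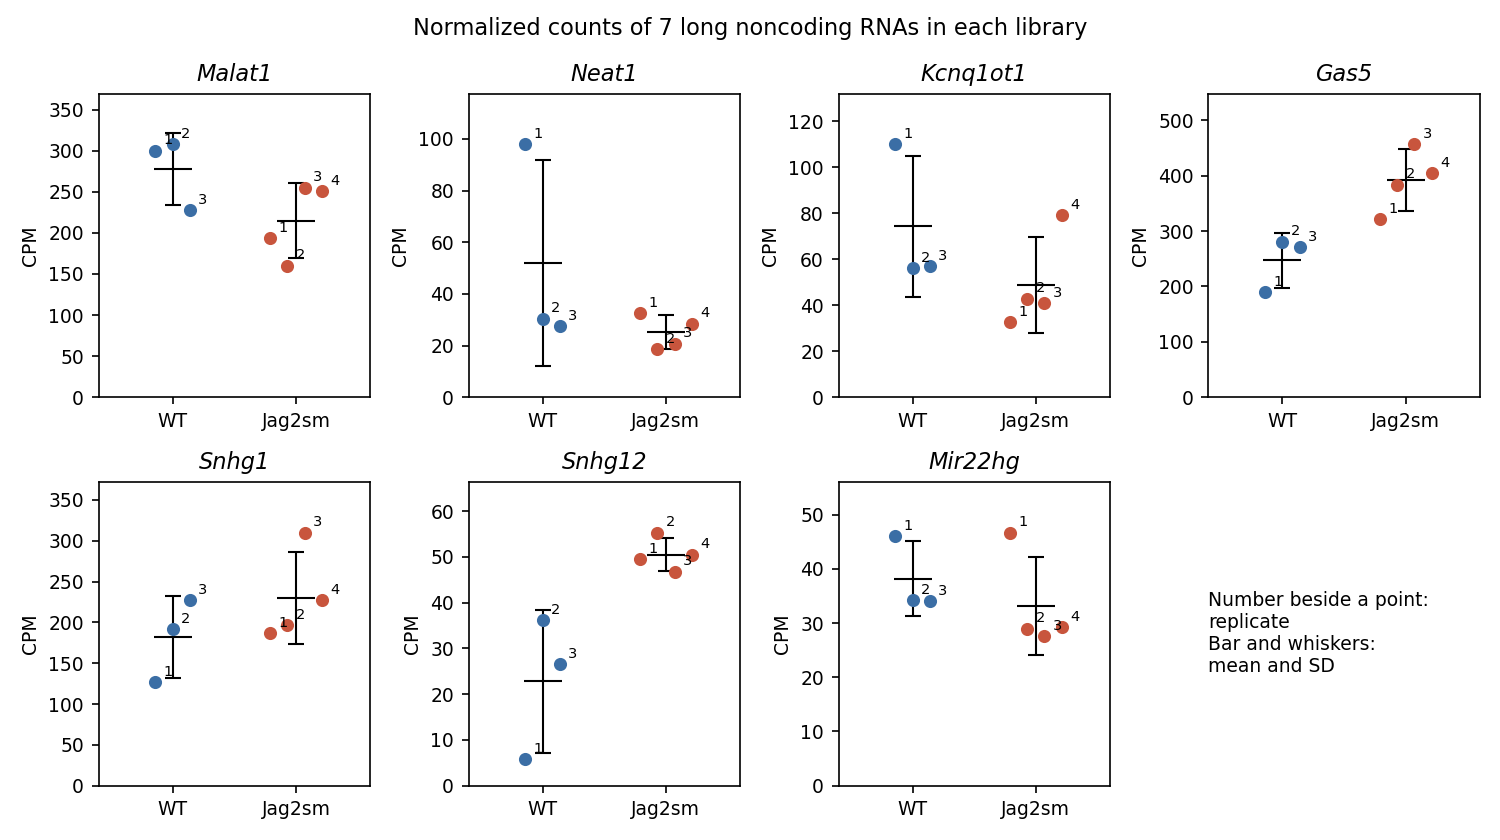
Normalized counts (CPM) of each long noncoding RNA in WT (blue) and Jag2sm (red) libraries, with points numbered by replicate, a bar at the mean and whiskers of 1 SD (n = 3 and 4). The Gas5 and Snhg12 points of Jag2sm all lie above those of WT, and WT replicate 1 is the highest point for Neat1 and Kcnq1ot1.

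*Gas5* (chr1:160861793-160866118, plus strand) is the growth arrest transcript that hosts box C/D snoRNAs. It was 190, 281 and 271 CPM in WT and 322, 384, 457 and 404 CPM in *Jag2sm*. Every *Jag2sm* library was above every WT library, and the lowest value was that of WT replicate 1. The genotypes differed by a log2 fold change of 0.64 ± 0.23 (edgeR, p = 0.018, adjusted p = 0.141), and the two-sided exact permutation test gave p = 0.0571. With the smaller tail doubled, that is the smallest p this test gives for 3 against 4 libraries, so it cannot reach 0.05. Between libraries with the same replicate number, which the labels also call the batch, the log2 differences were 0.76, 0.45 and 0.75. Batch 4 holds 1 *Jag2sm* library only, and what the batches stand for is not given in the sources used here. Without WT replicate 1 the fold change was 0.50 ± 0.176 (edgeR, adjusted p = 0.149).

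*Snhg12* (chr4:132035905-132038762, plus strand) hosts mainly box H/ACA snoRNAs, which guide pseudouridine formation. It was 5.76, 36.2 and 26.6 CPM in WT and 49.5, 55.3, 46.8 and 50.5 CPM in *Jag2sm*. The *Jag2sm* libraries lay close together and all above WT, while the value of WT replicate 1 rested on 1 count. The log2 fold change was 0.85 ± 0.309 (edgeR, p = 0.0192, adjusted p = 0.147; exact permutation p = 0.0571). Within batches 1, 2 and 3 the differences were 2.78, 0.59 and 0.78. Without WT replicate 1 the fold change was 0.66 ± 0.212 (edgeR, adjusted p = 0.118).

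*Snhg1* (chr19:8700319-8703812, plus strand) hosts box C/D snoRNAs beside *Slc3a2*. It was 127, 192 and 227 CPM in WT and 187, 197, 310 and 227 CPM in *Jag2sm*. The genotypes overlapped, and the log2 fold change was 0.30 ± 0.262 (edgeR, adjusted p = 0.576). It was 0.14 ± 0.225 without WT replicate 1 (edgeR, adjusted p = 0.794), less than its standard error. Within batches the differences were 0.55, 0.04 and 0.45.

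*Malat1* (chr19:5845717-5853602, minus strand) was 300, 308 and 228 CPM in WT and 194, 160, 255 and 251 CPM in *Jag2sm*. WT replicate 3 lay below *Jag2sm* replicates 3 and 4, so the genotypes overlapped. Its log2 fold change was −0.36 ± 0.237 (edgeR, adjusted p = 0.438), and within batches the differences were −0.63, −0.93 and 0.16. With all aligned reads as library size it was −0.08. Here and below, that setting takes the reads on genes, on no gene and ambiguous, without those of low alignment quality.

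*Neat1* (chr19:5874736-5897132, minus strand) was 98.0, 30.4 and 27.5 CPM in WT and 32.5, 18.7, 20.7 and 28.5 CPM in *Jag2sm*. WT replicate 1 stood far above the other 6 libraries, which overlapped. The log2 fold change of −0.73 ± 0.423 (edgeR, adjusted p = 0.374) became −0.26 ± 0.273 without that library (edgeR, adjusted p = 0.658). Within batches the differences were −1.54, −0.66 and −0.38. The gene had 220 counts in all.

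*Kcnq1ot1* (chr7:142731402-142850327, minus strand) was 110, 56.2 and 56.9 CPM in WT and 32.5, 42.8, 40.9 and 79.1 CPM in *Jag2sm*. *Jag2sm* replicate 4 lay above WT replicates 2 and 3. Its log2 fold change was −0.44 ± 0.343 (edgeR, adjusted p = 0.528). It was −0.21 ± 0.317 without WT replicate 1 (edgeR, adjusted p = 0.766) and −0.77 without *Jag2sm* replicate 4. Within batches the differences were −1.70, −0.38 and −0.46.

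*Mir22hg* (chr11:75352365-75357502, plus strand) was 46.1, 34.3 and 34.1 CPM in WT and 46.7, 29.0, 27.6 and 29.3 CPM in *Jag2sm*. The highest value in each genotype was that of replicate 1. Its log2 fold change was −0.16 ± 0.27 (edgeR, adjusted p = 0.807), and its sign turned with 2 other scalings, to 0.0039 with the library size alone and 0.06 with all aligned reads as library size. Those scalings moved the median of all genes from 0.05 to 0.21 and 0.26. The value was −0.32 without *Jag2sm* replicate 1 and −0.07 without *Jag2sm* replicate 3.

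The same-library balance between the nuclear RNAs and the snoRNA hosts does not depend on how libraries are scaled. Of the counts on *Malat1*, *Neat1*, *Kcnq1ot1*, *Gas5*, *Snhg1* and *Snhg12*, the first 3 held 61.1, 43.7 and 37.3% in WT and 31.7, 25.8, 28 and 34.5% in *Jag2sm*. The genotypes did not overlap. The nearest libraries were WT replicate 3 and *Jag2sm* replicate 4, and their exact binomial 95% intervals, of 34.1 to 40.6% and 31.9 to 37.2%, did overlap. Without *Malat1* the shares were 39.1, 14.5 and 13.9% in WT and 10.4, 8.81, 7.03 and 13.6% in *Jag2sm*. The grouping was made after the values were seen, so no test is given.

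**Figure D2:**
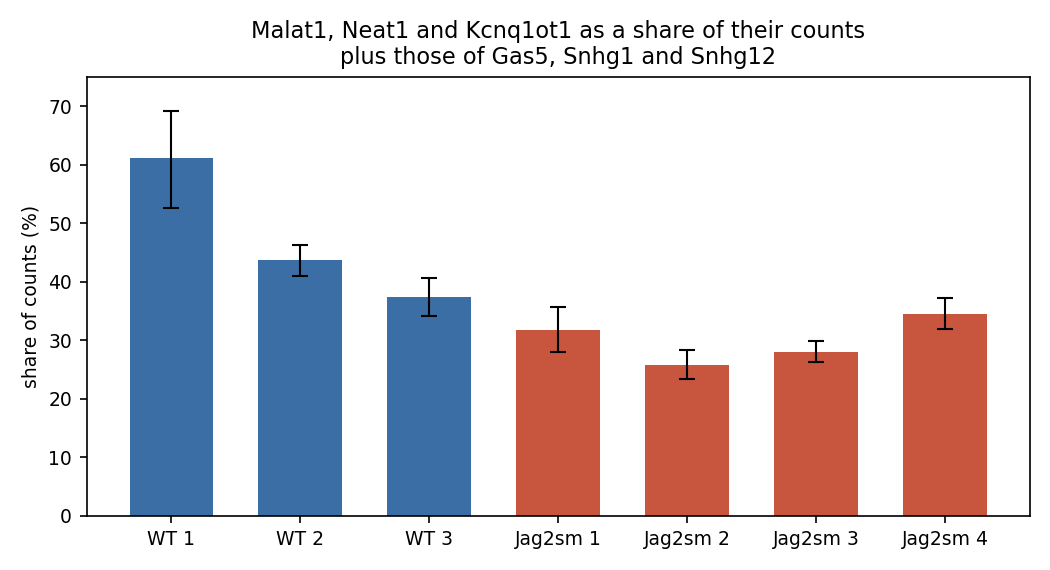
Share (%) of the counts on 6 long noncoding RNAs that lay on Malat1, Neat1 and Kcnq1ot1, by library, with WT in blue, Jag2sm in red and exact binomial 95% intervals (counting error only) as whiskers. WT replicate 1 is highest at 61.1%, and the 4 Jag2sm libraries lie between 25.8 and 34.5%.

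WT replicate 1, with its many aligned reads on no gene, was set against WT replicates 2 and 3. With 1 library on one side there is no test, and the intervals of the count ratios are exact binomial at 95% and cover counting error only. *Neat1* was 3.35-fold higher in WT replicate 1 (1.86 to 5.73) and *Kcnq1ot1* 1.94-fold (1.13 to 3.14). *Gas5* was at 0.687 of the level in the other WT libraries (0.469 to 0.974), *Snhg1* at 0.616 (0.382 to 0.942) and *Snhg12* at 0.179 (0.00447 to 1.02). *Malat1*, at 1.09 (0.806 to 1.44), and *Mir22hg*, at 1.35 (0.565 to 2.77), had intervals that included 1.

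The library was the highest of all 7 for *Neat1* and *Kcnq1ot1*, where 30.0% of all tested genes were highest in it, and the lowest for *Gas5*, *Snhg1* and *Snhg12*, where 38.3% were lowest. Past 2-fold against WT replicates 2 and 3 on the log2 CPM scale were 1 of 7 upward, *Neat1* (1.70), and 1 downward, *Snhg12* (−2.13), against 12.5% and 21.4% of all genes, or 33.9% in either direction. With all aligned reads as library size the count was 4 of 7, of which 3 were lower, and the median of all genes moved from −0.11 to −0.70. The markers of differentiated muscle were also highest in WT replicate 1, as given above, and their part was not tested.

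**Figure D3:**
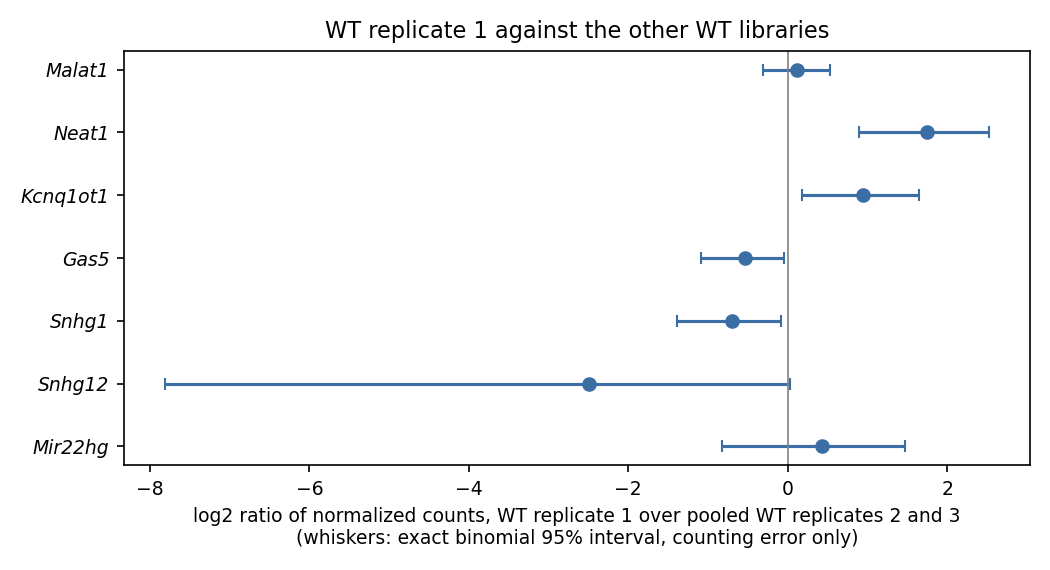
Log2 ratio of normalized counts in WT replicate 1 to those in pooled WT replicates 2 and 3 for each long noncoding RNA, with exact binomial 95% intervals (counting error only) as whiskers. Neat1 and Kcnq1ot1 lie above 0 and Gas5 and Snhg1 below, and the interval of Snhg12 reaches far down because it rests on 1 count.

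Of 20 further symbols of snoRNA hosts, 15 were tested. The log2 fold change was above 0 for 13 and below 0 for 2, with a median of 0.47 against 0.05 over all genes tested. By edgeR 0 were called, and 5 had an unadjusted p under 0.05 in either direction, against 19.7% of all genes. In 4 of the 15 all *Jag2sm* libraries lay above all WT libraries, against 10.3% of all genes. Those with most counts were *Zfas1*, at 160 ± 51.5 CPM in WT and 258 ± 69.6 in *Jag2sm* (SD; log2 fold change 0.64, edgeR adjusted p = 0.245), *Snhg8*, at 74.3 ± 20.6 and 114 ± 13.1 (0.54, adjusted p = 0.203), *Snhg5* (0.42, adjusted p = 0.417) and *Snhg15* (0.48, adjusted p = 0.394). The 2 below 0, named after their values were seen, were *Meg3* (−1.74, adjusted p = 0.167) and *Rian* (−2.06, adjusted p = 0.231), imprinted RNAs of 1 cluster. Both were among the 5 with an unadjusted p under 0.05. The median of the 15 was −0.70 for WT replicate 1 against the other WT libraries, where that of all genes was −0.11. Without WT replicate 1 the median fold change was 0.28 against 0.03 over all genes, again with 13 of 15 above 0, 0 called and 2 at an unadjusted p under 0.05. Over all genes 5229 of 9938 were then above 0 and 2008 had such a p.

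**Figure D4:**
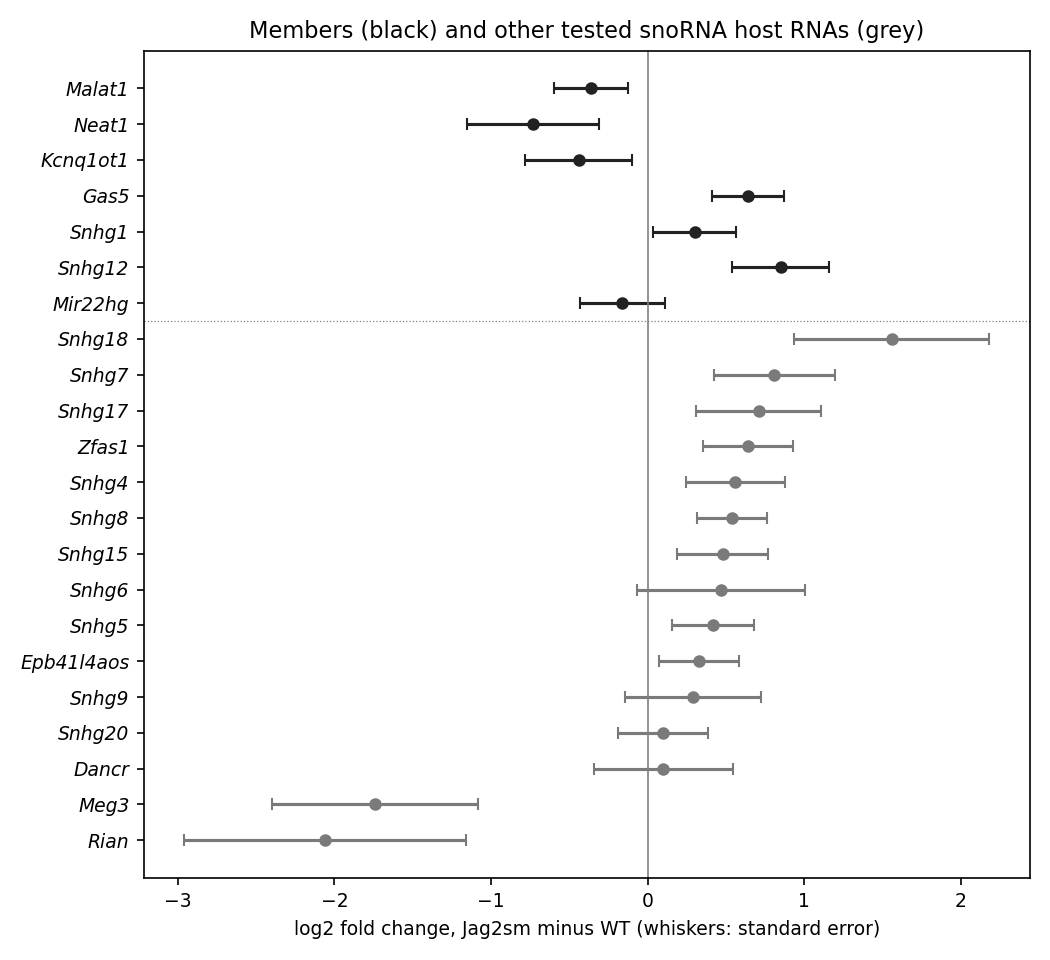
Log2 fold change of Jag2sm against WT (x axis, whiskers of 1 standard error) for the 7 long noncoding RNAs (black) and 15 further tested snoRNA hosts (grey). The 3 snoRNA hosts among the former and 13 of the 15 latter lie to the right of 0, and none passed the adjusted threshold.

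Of 10 other nuclear or regulatory RNAs tested, 8 had a fold change below 0, with a median of −0.27 and 0 called by edgeR (3 at an unadjusted p under 0.05). *H19*, an imprinted RNA abundant in myoblasts, was 4931 ± 428 CPM in WT and 1883 ± 986 in *Jag2sm* (SD; −1.39, edgeR adjusted p = 0.0654). *Oip5os1*, also called Cyrano, was 100.0 ± 33.1 and 54.2 ± 10.1 CPM (−0.77, adjusted p = 0.0979). *Pvt1*, named after its values were seen, went the other way, at 11.2 ± 5.19 and 28.7 ± 7.03 CPM (1.17, edgeR adjusted p = 0.064). All *Jag2sm* libraries lay above WT for *Pvt1* and below WT for *H19* and *Oip5os1*. Of all genes tested, 10.3% lay above and 12.2% below in this way. *Norad* and *Rn7sk* differed by −0.31 and 0.15. Of 7 further microRNA hosts tested, 3 were above 0 and 4 below, and 0 were called (2 at an unadjusted p under 0.05). The nearest to the threshold was *Mir503hg*, at 77.0 ± 4.43 and 26.7 ± 16.2 CPM (−1.55, edgeR adjusted p = 0.0501), with all *Jag2sm* libraries below WT.

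Proteins that work with these RNAs were not called either. Of 12 paraspeckle proteins, which assemble on *Neat1*, 11 were above 0 with a median of 0.24, and those with many counts included *Hnrnpk* (0.25), *Nono* (0.02) and *Sfpq* (0.22). Of 11 proteins of nuclear speckles or binding *Malat1*, 8 were above 0 with a median of 0.15, among them *Srrm2* (0.04) and *Srsf3* (0.31). Of 17 factors of nonsense-mediated decay, which acts on the spliced snoRNA hosts, 10 were above 0 with a median of 0.15, and their median in WT replicate 1 against the other WT libraries was −0.83. In these 3 lists 0 genes were called and 0 had an unadjusted p under 0.05 (edgeR). Without WT replicate 1 the medians were 0.13, 0.05 and −0.06.

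In the imprinted domain around *Kcnq1ot1*, 6 of 12 genes were tested, 2 above and 4 below 0, and 0 were called (1 at an unadjusted p under 0.05). That was *Cdkn1c*, the cell cycle inhibitor that *Kcnq1ot1* silences in cis, at 17.3, 79.5 and 165 CPM in WT and 8.48, 25.6, 4.43 and 78.3 CPM in *Jag2sm* (−1.75, edgeR adjusted p = 0.236). Its lowest WT value, which rested on 3 counts, was in WT replicate 1, where *Kcnq1ot1* was highest. In *Jag2sm* replicate 4 both were at their highest for that genotype. *Cd81* (−0.07), *Nap1l4* (−0.32) and *Cars1* (0.04) varied less.

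Several members share exon bases with other genes, and the strand setting of the counting is not given in the sources used here, so reads there may have been assigned to either gene or to none. *Snhg1* shares 743 bases with *Slc3a2* on the opposite strand, an amino acid transporter subunit that differed by −0.22 (edgeR, adjusted p = 0.694) and by 0.13 in WT replicate 1, where *Snhg1* was lower. *Gas5* shares 134 bases with *Zbtb37*, which was not tested. *Mir22hg* shares 206 bases with *Tlcd2* on the same strand (0.44, adjusted p = 0.51). *Kcnq1ot1* lies within *Kcnq1* on the opposite strand, which had 4 counts in all. *Dpf2*, a tested coding gene near *Malat1* and *Neat1*, differed by −0.48 (edgeR, adjusted p = 0.303).

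Likeness of pattern was measured as the root mean square difference of centred log2 CPM over the 7 libraries, among 4834 tested genes with a mean log2 CPM of at least 5. The nearest genes were *Kif22* for *Gas5* (0.0901), *Lsg1* for *Snhg1* (0.0767), *Basp1* for *Snhg12* (0.128), *Washc3* for *Malat1* (0.121), *Acads* for *Neat1* (0.131), *Sirt2* for *Kcnq1ot1* (0.161) and *Hsbp1* for *Mir22hg* (0.0886). The members most like each other were *Gas5* and *Snhg1* (0.215), and those least alike were *Neat1* and *Snhg12* (1.62).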

How the data were processed

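RNA of MuSCs was measured in 3 WT and 4 *Jag2sm* libraries. Per the submitters' processing notes, minimap2 2.17 aligned reads to GRCm39 and HTSeq counted them, and the authors deposited the raw counts per gene. For HTSeq, the version, strand setting and annotation release are not given in the sources used here. The deposited counts cover 56748 genes and 5 summary lines, which were kept out of the tests. The authors' table of fold changes and p-values was not used. Locations come from GENCODE M39, in which 56017 identifiers were found, 31625 with the same version. All 7 members were found.

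Counts were fitted in R 4.3.3 with edgeR 4.0.16 (filterByExpr with a minimum count of 10 and total of 15, library sizes recomputed over the 9489 genes left, TMM, glmQLFit and glmQLFTest) without covariates. A call needed an adjusted p (Benjamini-Hochberg, over all genes tested) under 0.05. The standard error is the log2 fold change divided by the square root of F. CPM are TMM-scaled, and log2 CPM has a prior count of 2. Exact permutation tests of log2 CPM ran over 35 splits and are two-sided, doubling the smaller tail (SciPy 1.17.1). A version with the absolute difference as its statistic can give a smaller p. It was tried after results had been seen and was not kept. DESeq2 1.42.0 and limma 3.58.1 (voom) were alternatives. The fit was tested on simulated data.

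Replicate numbers equal the batch numbers of the labels, but what libraries of the same number share is not given in the sources used here. Deviations of same-numbered libraries correlated at 0.074, 0.0144 and 0.0539 across genes. The block was an alternative.

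The members and lists were chosen with earlier results of these data known. Named beside them were called genes of the lists, up to 4 genes of each list with most counts, neighbouring and overlapping genes, and the genes nearest in pattern, of which some are not reported here. Intervals and the floor of 3 counts cover counting error only. Depth ranged from 187834 to 1937581 reads on genes.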

Additional observations from a re-analysis of the deposited data

Results flagged for a closer look

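Among the 4 *Jag2sm* libraries, 1 value stood apart from the others by Dixon's test in each of 3 measures. *Mir22hg* was 46.7 CPM in *Jag2sm* replicate 1, against 27.6 to 29.3 CPM in the other 3. The reads that did not align were 3.07% in *Jag2sm* replicate 3. Mitochondrially encoded genes took 6.05% of the reads on genes in *Jag2sm* replicate 1. Dixon's test at this level singles out some groups by chance alone, about 5% of those examined.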

How the results depend on the processing

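With every alternative 0 of the long noncoding RNAs tested were called. The stricter filter (10 counts or more in each library) left 5 tested and thinning left 4, which leave out *Snhg12* and *Mir22hg*, and thinning also *Neat1*. Genes called overall were 594 (135 higher, 459 lower in *Jag2sm*). They were 1248 with no filter (468 and 780), 274 with at least 10 counts in every library, 255 after thinning to the smallest library, and 251 to 616 when 1 library was left out. The lowest counts were 343 without WT replicate 2, 341 without WT replicate 3 and 251 without *Jag2sm* replicate 2. The cause was not tested, beyond the fewer genes tested with a stricter filter and after thinning. With library size alone the split was 241 higher and 384 lower, and with all aligned reads 180 and 349. *Mir22hg* reversed to 0.0039 and 0.06 in these, respectively.

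With all aligned reads as library size, 4 of the 7 passed 2-fold in WT replicate 1, *Malat1* turned to −0.47 and *Mir22hg* to −0.21. In WT replicate 1, the *Malat1* difference was −0.04 without WT replicate 3 and 0.39 without WT replicate 2. DESeq2 called 788 genes and limma-voom 612.

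With the replicate number as a block, 565 genes were called and 0 of the 7. *Neat1* was at −0.84 and *Kcnq1ot1* at −0.76 (edgeR, adjusted p = 0.215 and 0.258). The block changed no call among the 7. At an unadjusted p under 0.05 it gave *Kcnq1ot1*, *Neat1* and *Snhg12* in place of *Gas5* and *Snhg12*, with *Gas5* at an adjusted p of 0.291. Adjusted p ranged over the alternatives from 0.0547 to 0.291 for *Gas5* and from 0.0812 to 0.362 for *Snhg12*.

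Recomputing library sizes over the tested genes was adopted after both versions had been seen. With library sizes over all genes, 592 genes and 0 of the 7 were called. The settings without WT replicate 1 for gene lists were also added after seeing the data. At 187834 reads, WT replicate 1 limits what can be said of RNAs under 17.3 CPM.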
